A study of Homo sapiens with 18 samples.

Results

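The let-7 host gene locus on chromosome 22 is a stretch of DNA that carries MIRLET7BHG, the host gene of the microRNAs let-7a-3 and let-7b, and beside it the long non-coding RNA genes PRR34-AS1 and PRR34. The locus was followed through 9 genes, which also include both microRNA genes and the flanking coding genes ATXN10, WNT7B, PPARA and CDPF1, out of 54425 genes in the table. MIRLET7BHG and PRR34-AS1 were chosen on measured values, since they had ranked among the genes that differed most between co-expression and MLL-AF4 cells, MIRLET7BHG on day 28 and PRR34-AS1 on day 3, and the other 7 were taken for their position. Rows of the table were found for 7 of the 9 genes, and 6 of these passed the filter on low counts. MIRLET7A3 and MIRLET7B had no row in the table used here, so the microRNA hairpins themselves were not analysed here. ATXN10 had a row but only 2 to 13 counts in a library and was left out of the tests.

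The data are ATAC-seq reads per gene, from HEK293T cells, a human embryonic kidney cell line. In ATAC-seq a transposase cuts and tags DNA where chromatin is open, so that a higher count at a gene means more insertions there and is not a measure of its RNA. The counts were not adjusted for DNA copy number. The 18 libraries form 6 groups of 3 biological replicates, from 3 construct settings on day 3 and day 28. MLL-AF4 cells carried an inducible MLL-AF4 transgene, AF4-MLL cells an inducible AF4-MLL transgene, and co-expression cells a constitutive MLL-AF4 transgene together with an inducible AF4-MLL transgene. These are the direct and the reciprocal fusion gene of the leukemia translocation that joins MLL to AF4 (AFF1). Inducible transgenes were switched on with 1 µg/ml doxycycline for 48 h, and in the co-expression system the inducer was removed on day 3. The paper describes the inducible transgenes as shut down again by day 28. Names of settings on that day therefore tell which transgenes had been introduced, and only MLL-AF4 of the co-expression cells was constitutive. All transgenes sat on Sleeping Beauty vectors. In the co-expression system the paper describes the AF4-MLL vector as transiently transfected, held with blasticidin for 48 h and lost from the cells afterwards. The co-expression cells had been selected for the constitutive vector before the second transfection, so their vector and culture history cannot be told apart from the co-expression itself. No mock-transfected library is among the groups, and each setting was therefore compared with the others. HEK293T cells are not blood cells, which limits them as a model of the leukemia.

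MicroRNAs of the let-7 family pair through their seed, bases 2 to 8 of the mature strand, with sites in messenger RNAs and lower the output of growth and stem cell genes such as the MYC, HMGA2 and LIN28 genes. LIN28 proteins in turn bind let-7 precursors and block their processing, so that let-7 is low in embryonic and many cancer cells. The let-7a-3 and let-7b hairpins are cut from the transcript of MIRLET7BHG, so that the open chromatin of this gene bears on both. Of the flanking genes, WNT7B encodes a secreted Wnt ligand, PPARA a nuclear receptor that switches on fatty acid oxidation, and ATXN10 a cytoplasmic protein whose intronic repeat expands in a form of spinocerebellar ataxia.

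In the RefSeq annotation of GRCh38.p14 the genes lie on chromosome 22 in the order ATXN10 (45671834 to 45845307), WNT7B (45920366 to 45977162), PRR34 (46048531 to 46054225), PRR34-AS1 (46053846 to 46058522), MIRLET7BHG (46085997 to 46113928), PPARA (46150526 to 46243756) and CDPF1 (46244013 to 46250293). PRR34 and PRR34-AS1 overlap by 380 bases, and ATAC-seq reads carry no strand, so reads in those bases cannot be assigned to either gene. A gap of 27474 bases separates PRR34-AS1 from MIRLET7BHG, and 36597 bases lie between MIRLET7BHG and PPARA. RefSeq also lists PRR34-AS1 as an older synonym of MIRLET7BHG and draws a protein-coding model, LOC124905135, across PRR34, PRR34-AS1 and MIRLET7BHG. In the count table MIRLET7BHG (ENSG00000197182) and PRR34-AS1 (ENSG00000241990) are separate rows, and whether their models in the annotation used for counting touch is not given in the sources used here.

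Both let-7 hairpins sit at the end of the host gene. The let-7a-3 hairpin (46112749 to 46112822) ends 1106 bases and the let-7b hairpin (46113686 to 46113768) ends 160 bases before the last base of MIRLET7BHG. The mature strands are given below because they define which messages the locus can reach, with the seed in capitals (RefSeq, GRCh38.p14, plus strand).
let-7a-5p: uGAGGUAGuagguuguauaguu
let-7b-5p: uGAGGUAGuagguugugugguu
They share 20 of 22 bases and differ by A17G and A19G, counted from the 5′ end with the base of let-7a first, both outside the seed. The same seed is carried by 11 mature microRNAs of 14 hairpins in the RefSeq table, on chromosomes 3, 5, 9, 11, 12, 13, 19, 21, 22 and X, so MIRLET7BHG hosts 2 of 14 such hairpins.
A pair of further microRNAs lies inside MIRLET7BHG and has other seeds: MIR3619, 5047 bases from the start of the host gene, and MIR4763, 271 bases before its end.
miR-3619-5p: uCAGCAGGcaggcuggugcagc
miR-4763-3p: aGGCAGGGgcuggugcugggcggg
The seed of miR-3619-5p is also that of miR-214-3p and miR-761, and that of miR-4763-3p was found in no other mature strand of the table.

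The 300-base windows around the RefSeq start are shown for both long non-coding RNA genes because their counts are the ones that differed between groups, with every CpG in capitals (GRCh38.p14, plus strand). The PRR34-AS1 window spans chr22:46053596-46053895, which lies inside the extent of PRR34, and the MIRLET7BHG window spans chr22:46085747-46086046.
PRR34-AS1: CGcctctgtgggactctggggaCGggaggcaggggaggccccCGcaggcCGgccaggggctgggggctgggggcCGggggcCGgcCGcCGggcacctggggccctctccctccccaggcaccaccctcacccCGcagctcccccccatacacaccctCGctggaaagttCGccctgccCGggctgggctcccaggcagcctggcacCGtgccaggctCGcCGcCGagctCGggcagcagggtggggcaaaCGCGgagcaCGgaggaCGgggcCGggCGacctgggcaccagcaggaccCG
MIRLET7BHG: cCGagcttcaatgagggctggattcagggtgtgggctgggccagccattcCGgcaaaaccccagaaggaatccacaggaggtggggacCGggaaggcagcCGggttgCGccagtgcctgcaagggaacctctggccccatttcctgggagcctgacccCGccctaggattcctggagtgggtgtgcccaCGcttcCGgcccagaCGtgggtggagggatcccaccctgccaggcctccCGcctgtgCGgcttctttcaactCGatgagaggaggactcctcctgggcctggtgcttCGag
The PRR34-AS1 window holds 24 CpG and is 78.0% G or C, and 33.9% of 35116 such RefSeq windows hold at least as many CpG. The MIRLET7BHG window holds 13 CpG and is 65.3% G or C, which 51.7% of windows reach or exceed, close to the median of 14. The GC box GGGCGG, searched on both strands (also as CCGCCC), was found once in the MIRLET7BHG window and not in the PRR34-AS1 window, and 44.95% of all windows hold it. PPARA and CDPF1 start in denser CpG, with 52 and 45 in the window, numbers that 0.780% and 3.48% of windows reach. These matches describe the letters of the windows only, since the counts are per gene and do not show where in a gene the reads lay.

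The libraries held 442159 to 3539937 counts (median 1254820). Mitochondrial genes took 32.7% to 45.6% of them on day 3 and 63.6% to 68.5% on day 28, which left 297567 to 1116385 nuclear counts. Values are given as normalised read counts (CPM), scaled to a common library size, on which a single count was worth 0.453 to 1.39 CPM. Among day 3 libraries, AF4-MLL replicate 2 and co-expression replicate 3 stood apart with 32.7% and 32.8% mitochondrial counts. The kidney regulators PAX2, LHX1 and EYA1 had 6 to 67 counts in every library, and the blood genes PTPRC and SPI1 had 6 to 43, while CD3E and CD79A had 0 to 8. Counts per gene thus did not separate kidney from blood markers, and the cell line label could not be checked in this way. The summed CPM of the kidney genes was 34.9 to 48.9 in the co-expression libraries of day 3, which lay below the AF4-MLL libraries (50.2 to 62.5) and overlapped the MLL-AF4 libraries (44.0 to 58.1). On day 28 it was 42.3 to 55.7 with co-expression, below the MLL-AF4 libraries (56.1 to 61.9) and overlapping the AF4-MLL libraries (48.4 to 70.8). The summed blood genes lay at 35.9 to 42.8 CPM with co-expression on day 3 and overlapped the other settings (32.1 to 40.9 CPM), whereas on day 28 they were lowest with co-expression, at 25.6 to 27.7 CPM against 36.2 to 42.6 CPM. The part of these marker differences in the results below was not tested.

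MIRLET7BHG had higher scaled ATAC-seq counts in co-expression cells than in either single fusion setting, on both days. On day 3 its 3 libraries held 11, 9 and 18 counts in MLL-AF4 cells, 30, 13 and 13 in AF4-MLL cells, and 55, 44 and 59 in co-expression cells. On day 28 they held 11, 23 and 18 counts in MLL-AF4 cells, 25, 33 and 17 in AF4-MLL cells, and 73, 54 and 27 in co-expression cells, of which the last library was the shallowest of its group. Once scaled, all 6 co-expression libraries (31.6 to 38.8 CPM) lay above all 12 libraries with a single fusion gene (8.74 to 20.1 CPM).

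On day 3 the mean level of MIRLET7BHG was 35.3 ± 3.6 CPM (SD, n = 3) in co-expression cells against 14.3 ± 5.0 CPM in MLL-AF4 cells and 14.5 ± 4.4 CPM in AF4-MLL cells. The log2 difference was 1.29 (SE 0.25) against MLL-AF4 cells, with an adjusted p of 0.00037 (edgeR quasi-likelihood test, Benjamini-Hochberg). Against AF4-MLL cells it was 1.31 (SE 0.22, adjusted p = 1.7e-05, edgeR). Both comparisons use the same co-expression libraries. Without co-expression replicate 3 the log2 differences were 1.22 and 1.25, and without AF4-MLL replicate 2 the second was 1.41. The summed counts gave ratios of 2.46 (95% exact interval 1.72 to 3.61) and 2.50 (1.83 to 3.45), where the intervals cover counting error only.

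On day 28 the mean was 33.4 ± 1.1 CPM (SD, n = 3) in co-expression cells, 12.2 ± 3.4 CPM in MLL-AF4 cells and 14.9 ± 3.1 CPM in AF4-MLL cells. The log2 difference was 1.44 (SE 0.23) against MLL-AF4 cells, the value by which the gene was chosen, and 1.13 (SE 0.21) against AF4-MLL cells, which rests on the same co-expression libraries. These are given as a description, without a test. The co-expression libraries of both days overlapped (35.3 ± 3.6 CPM on day 3), with a log2 change of -0.09 (SE 0.18, 95% interval -0.44 to 0.26).

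The order of the MIRLET7BHG means was co-expression day 3, co-expression day 28, AF4-MLL day 28, AF4-MLL day 3, MLL-AF4 day 3 and MLL-AF4 day 28. Of the neighbours in this order, only co-expression day 28 and AF4-MLL day 28 had libraries that did not overlap. The single fusion settings overlapped on both days, with log2 differences of AF4-MLL against MLL-AF4 cells of -0.02 (95% interval -0.63 to 0.59) on day 3 and 0.31 (-0.21 to 0.84) on day 28.

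**Figure D1:**
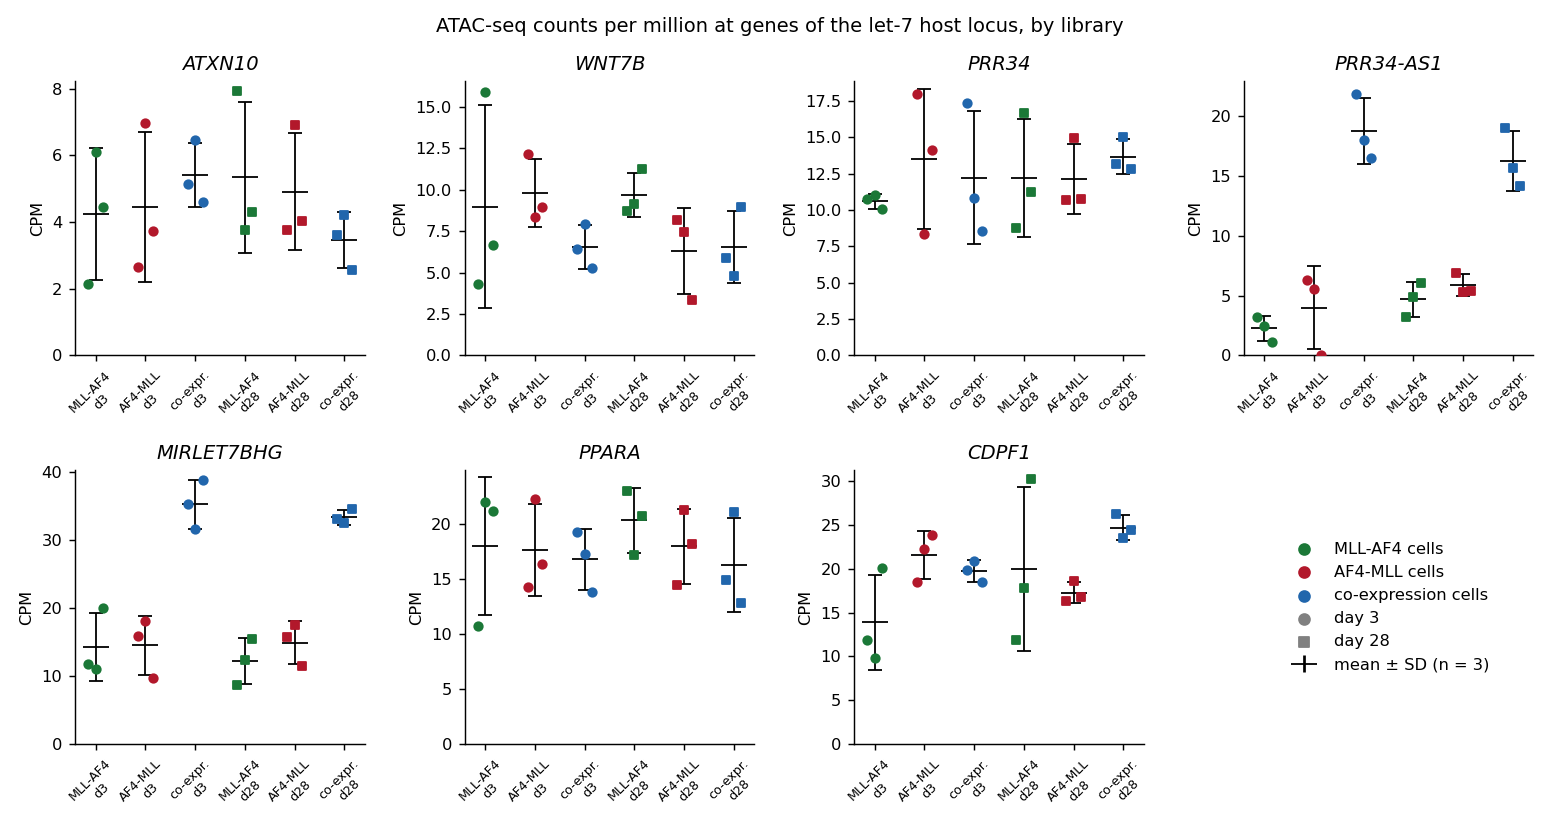
ATAC-seq level of the 7 locus genes with a row, as normalised read counts in CPM (vertical axis, from 0) for the 6 groups (horizontal axis). Points are libraries, and black bars mark the mean ± SD of 3. MIRLET7BHG and PRR34-AS1 separate the 6 co-expression libraries from the other 12, and the groups of ATXN10, PRR34 and PPARA overlap within each day.

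PRR34-AS1, the antisense long non-coding RNA gene between PRR34 and MIRLET7BHG, differed in the same direction on fewer counts. On day 3 it had 3, 2 and 1 counts in MLL-AF4 cells, 12, 4 and 0 in AF4-MLL cells, and 34, 25 and 25 in co-expression cells. On day 28 it had 4, 9 and 7 counts in MLL-AF4 cells, 11, 10 and 8 in AF4-MLL cells, and 42, 26 and 11 in co-expression cells. The lowest co-expression library, at 14.1 CPM, lay above the highest library of a single fusion, at 6.90 CPM.

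On day 28 the mean of PRR34-AS1 was 16.3 ± 2.5 CPM (SD, n = 3) in co-expression cells, 4.69 ± 1.44 CPM in MLL-AF4 cells and 5.87 ± 0.90 CPM in AF4-MLL cells. The log2 difference was 1.83 (SE 0.35, adjusted p = 0.00034, edgeR) against MLL-AF4 cells and 1.51 (SE 0.32, adjusted p = 0.0014, edgeR) against AF4-MLL cells. The second comparison lost its call without co-expression replicate 1, the deepest library of the group, at a log2 difference of 1.36 and an adjusted p of 0.066 (edgeR). As a ratio of summed counts the differences were 3.63 (95% exact interval 2.20 to 6.27) and 2.90 (1.88 to 4.61). Too few libraries of a single fusion reached the filter on low counts for PRR34-AS1 to pass without the co-expression libraries, where it was high. No support is therefore drawn from its adjusted p-values.

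On day 3, where PRR34-AS1 was chosen, the mean was 18.7 ± 2.8 CPM (SD, n = 3) in co-expression cells against 2.26 ± 1.07 CPM in MLL-AF4 cells. The 84 counts against 6 correspond to a ratio of 8.29, with an exact 95% counting interval of 3.65 to 23.2, so the size of this difference is known only within several fold. The ratio to the AF4-MLL cells of the same day (3.97 ± 3.46 CPM, 16 counts) was 4.65 (2.70 to 8.50). This value depended on single libraries, since the fitted log2 difference to AF4-MLL cells of 2.19 became 3.21 without AF4-MLL replicate 1 (12 counts) and 1.61 without AF4-MLL replicate 3 (0 counts). The fitted log2 differences were 3.00 (SE 0.47) and 2.19 (SE 0.36), given as a description. Between the single fusion settings the log2 difference was 0.81 (95% interval -0.51 to 2.12) on day 3 and 0.32 (-0.53 to 1.17) on day 28.

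The proportion of counts at both genes was also computed. For every 100 counts at MIRLET7BHG there were on day 3 15.8 at PRR34-AS1 in MLL-AF4 cells, 28.6 in AF4-MLL cells and 53.2 with both fusions. On day 28 the same numbers were 38.5, 38.7 and 51.3. These proportions rest on as few as 6 counts and were not tested.

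**Figure D2:**
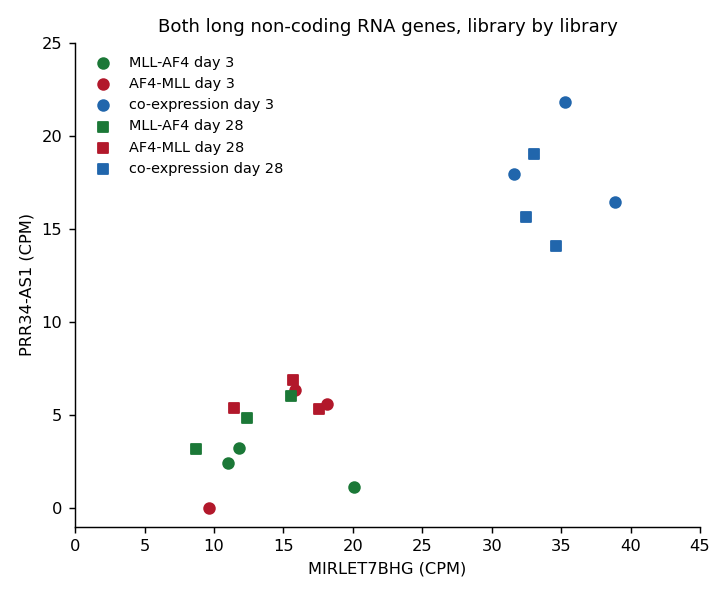
Level of PRR34-AS1 (vertical axis, CPM) against MIRLET7BHG (horizontal axis, CPM) in the 18 libraries, coloured by construct setting, with circles for day 3 and squares for day 28. The co-expression libraries form 1 group at 31.6 CPM or more of MIRLET7BHG and 14.1 CPM or more of PRR34-AS1, apart from the other 12.

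PRR34, which overlaps the start of its antisense partner PRR34-AS1, showed no such separation. It had 6 to 34 counts and 8.36 to 17.96 CPM over all libraries, with group means between 10.6 ± 0.5 CPM (SD, n = 3) in the MLL-AF4 group of day 3 and 13.7 ± 1.2 CPM in the co-expression group of day 28. The log2 difference of co-expression against MLL-AF4 cells was 0.21 (95% interval -0.46 to 0.89) on day 3 and 0.11 (-0.45 to 0.66) on day 28. Against AF4-MLL cells it was -0.26 (-0.83 to 0.30) and 0.16 (-0.38 to 0.70). On day 28 these intervals end below the 1.83 and 1.51 measured for PRR34-AS1, and the difference between both genes was not tested.

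PPARA, the nearest coding gene after MIRLET7BHG, had 10 to 40 counts and overlapping groups throughout. Its means lay between 16.3 ± 4.3 CPM (SD, n = 3) for co-expression on day 28 and 20.3 ± 2.9 CPM in MLL-AF4 cells on day 28. The log2 difference of co-expression against MLL-AF4 cells was -0.08 (95% interval -0.63 to 0.47) on day 3 and -0.25 (-0.72 to 0.22) on day 28, and against AF4-MLL cells 0.02 (-0.48 to 0.53) and -0.11 (-0.58 to 0.35). The upper bounds lie below the MIRLET7BHG differences of the same comparisons. Of these, the difference against MLL-AF4 cells on day 28 is the one by which MIRLET7BHG was chosen. The difference between both genes was not tested.

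CDPF1, whose gene lies 256 bases from PPARA, was the only other gene of the locus with a difference at an unadjusted p under 0.05 between settings. On day 28 its 3 co-expression libraries (23.5 to 26.3 CPM) lay above the 3 AF4-MLL libraries (16.3 to 18.6 CPM). The log2 difference of 0.52 (SE 0.22) had an adjusted p of 0.25 (edgeR) and was not called. In AF4-MLL against MLL-AF4 cells on day 3 it was 0.59 (SE 0.29, adjusted p = 0.51, edgeR), with overlapping libraries. Within co-expression cells the day 28 libraries lay above those of day 3 (18.4 to 20.8 CPM), at a log2 change of 0.34 (SE 0.22, adjusted p = 0.65, edgeR) that was not called.

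WNT7B had 4 to 23 counts. On day 3 the co-expression libraries (5.27 to 7.91 CPM) lay below the AF4-MLL libraries (8.36 to 12.2 CPM), a log2 difference of -0.66 (SE 0.37, adjusted p = 0.47, edgeR) that was not called. On day 28 the AF4-MLL libraries (3.36 to 8.16 CPM) lay below the MLL-AF4 libraries (8.74 to 11.2 CPM), again without a call (log2 difference -0.57, SE 0.36, adjusted p = 0.71, edgeR). They also lay below the AF4-MLL libraries of day 3 (log2 change -0.67, SE 0.36, adjusted p = 0.58, edgeR). ATXN10, the outermost gene, had group means of 3.47 to 5.40 CPM, and its groups overlapped on each day.

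Counted over the 6 genes tested, 2 were called (adjusted p under 0.05), MIRLET7BHG and PRR34-AS1, both higher, in each comparison of co-expression cells with a single fusion. Among all 17660 genes tested, 1.8% were called against MLL-AF4 cells and 1.32% against AF4-MLL cells on day 3, and 1.15% and 1.69% on day 28. Since both genes were chosen on 2 of these 4 comparisons, nothing is read from the excess. Between AF4-MLL and MLL-AF4 cells 0 of 6 were called on either day (1 gene at an unadjusted p under 0.05 on day 3 and 0 on day 28, edgeR), beside 0.142% and 0.0793% of all genes. DESeq2 gave none of the 6 genes an adjusted p on day 3 and called 0 of 6 on day 28. The medians over the 6 genes were log2 0.35 and -0.04 on day 3 and 0.23 and 0.34 on day 28 in the co-expression comparisons, with medians over all genes within 0.01 of 0. DESeq2 called MIRLET7BHG in the same 4 comparisons and returned no adjusted p for PRR34-AS1 there, whose mean count was under its own filter. Its unadjusted p for PRR34-AS1 was 4.3e-06 and 2.8e-06 on day 3 and 5.0e-05 and 0.00026 on day 28. The first of these p-values comes from the comparison that chose PRR34-AS1. The DESeq2 call of MIRLET7BHG against MLL-AF4 cells on day 28 likewise comes from the comparison that chose that gene. Nothing is read from either.

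No gene of the locus was called between the days. From day 3 to day 28, 0 of 6 were called in any of the AF4-MLL, MLL-AF4 and co-expression settings (0 at an unadjusted p under 0.05 in each, edgeR, and 0 by DESeq2, which gave an adjusted p to 2, 2 and 0 of the 6), where 0.606%, 2.87% and 0.606% of all genes were. The largest change among them was that of PRR34-AS1 in MLL-AF4 cells, 1.01 on the log2 scale with a 95% interval of -0.25 to 2.27, from 6 counts to 20. Differences in the day change between settings were called for 0 of 6 genes by edgeR (1, CDPF1, at an unadjusted p under 0.05, in the third of these), beside 0.277% of all genes for co-expression against MLL-AF4 cells, 0% for co-expression against AF4-MLL cells and 0.311% for AF4-MLL against MLL-AF4 cells. DESeq2 gave an adjusted p to 0, 6 and 1 of the 6 genes in these, and called 0 of them. The 0% stands for 0 genes in edgeR and 0 in DESeq2, with 894 at an unadjusted p under 0.05 in edgeR. For PRR34-AS1 the difference between co-expression and MLL-AF4 cells was smaller by 1.17 on the log2 scale on day 28 than on day 3 in the fit, with a 95% interval of -2.52 to 0.19 for the change, which includes 0. For MIRLET7BHG the same change was 0.15 (-0.56 to 0.85).

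The tested genes around the locus were read in the same comparisons. LINC00899, the tested gene between WNT7B and PRR34, had log2 differences of 0.65 (SE 0.50) and 0.80 (SE 0.46) on day 3 and 0.55 (SE 0.39) and 0.51 (SE 0.38) on day 28 against MLL-AF4 and AF4-MLL cells, none called (adjusted p = 0.59, 0.49, 0.63 and 0.63, edgeR). Its libraries held 2 to 19 counts, and its 95% intervals reached 1.63 and 1.69 on day 3 and 1.32 and 1.25 on day 28. A difference as large as that of MIRLET7BHG lay inside the interval in 3 of the 4 comparisons, and the difference between both genes was not tested. The next 3 tested genes before WNT7B, FAM118A, SMC1B and FBLN1 (which encodes the matrix protein fibulin-1), were not called in any of these comparisons. The same held for TTC38, GTSE1-DT and GTSE1, a cell cycle gene, after CDPF1.

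Of 21 neighbours listed 15 were tested, and those called were NUP50 on day 3 and GRAMD4 on day 28, both against MLL-AF4 cells. Over a wider window of 25 tested genes, 12 on each side and LINC00899 within, the median log2 difference was 0.12 and -0.36 on day 3 and -0.21 and -0.29 on day 28. The genes called there, named after their values were seen, were 2 and 3 on day 3 and 2 and 1 on day 28. Of all genes tested 1.8% and 1.32% were called on day 3 and 1.15% and 1.69% on day 28, and the difference in share was not tested. NUP50, a nuclear pore gene, was higher than in MLL-AF4 cells on day 3 (28.6 ± 4.0 against 14.7 ± 1.4 CPM, SD, n = 3) by edgeR (log2 0.94, SE 0.26, adjusted p = 0.026) and was not called by DESeq2 (adjusted p = 0.14). The other calls were lower in co-expression cells. CRELD2, an endoplasmic reticulum stress gene, fell by 1.01 and 1.13 on day 3 and by 0.66 against AF4-MLL cells on day 28. PIM3 fell by 0.93 against AF4-MLL cells on day 3 and by 1.02 against MLL-AF4 cells on day 28. ALG12 fell by 0.97 against AF4-MLL cells on day 3, and GRAMD4 by 1.17 against MLL-AF4 cells on day 28. These are edgeR calls. Of them DESeq2 called CRELD2 in both day 3 comparisons (adjusted p = 0.014 and 0.0012) and not on day 28 (0.14), called neither PIM3 difference (0.23 and 0.14), and gave no adjusted p for ALG12 and GRAMD4.

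On the whole of chromosome 22, 382 genes were tested. Their median log2 difference was 0.13 and -0.09 on day 3 and -0.08 and 0.06 on day 28, and 2.36%, 3.93%, 4.19% and 3.66% of them were called. Only 2, 1, 1 and 1 of the 382 had a log2 difference above that of MIRLET7BHG in these comparisons, PRR34-AS1 being among them each time. Against MLL-AF4 cells MIRLET7BHG had been chosen for its high rank on day 28 and PRR34-AS1 for its high rank on day 3. Nothing is therefore read from these ranks.

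**Figure D3:**
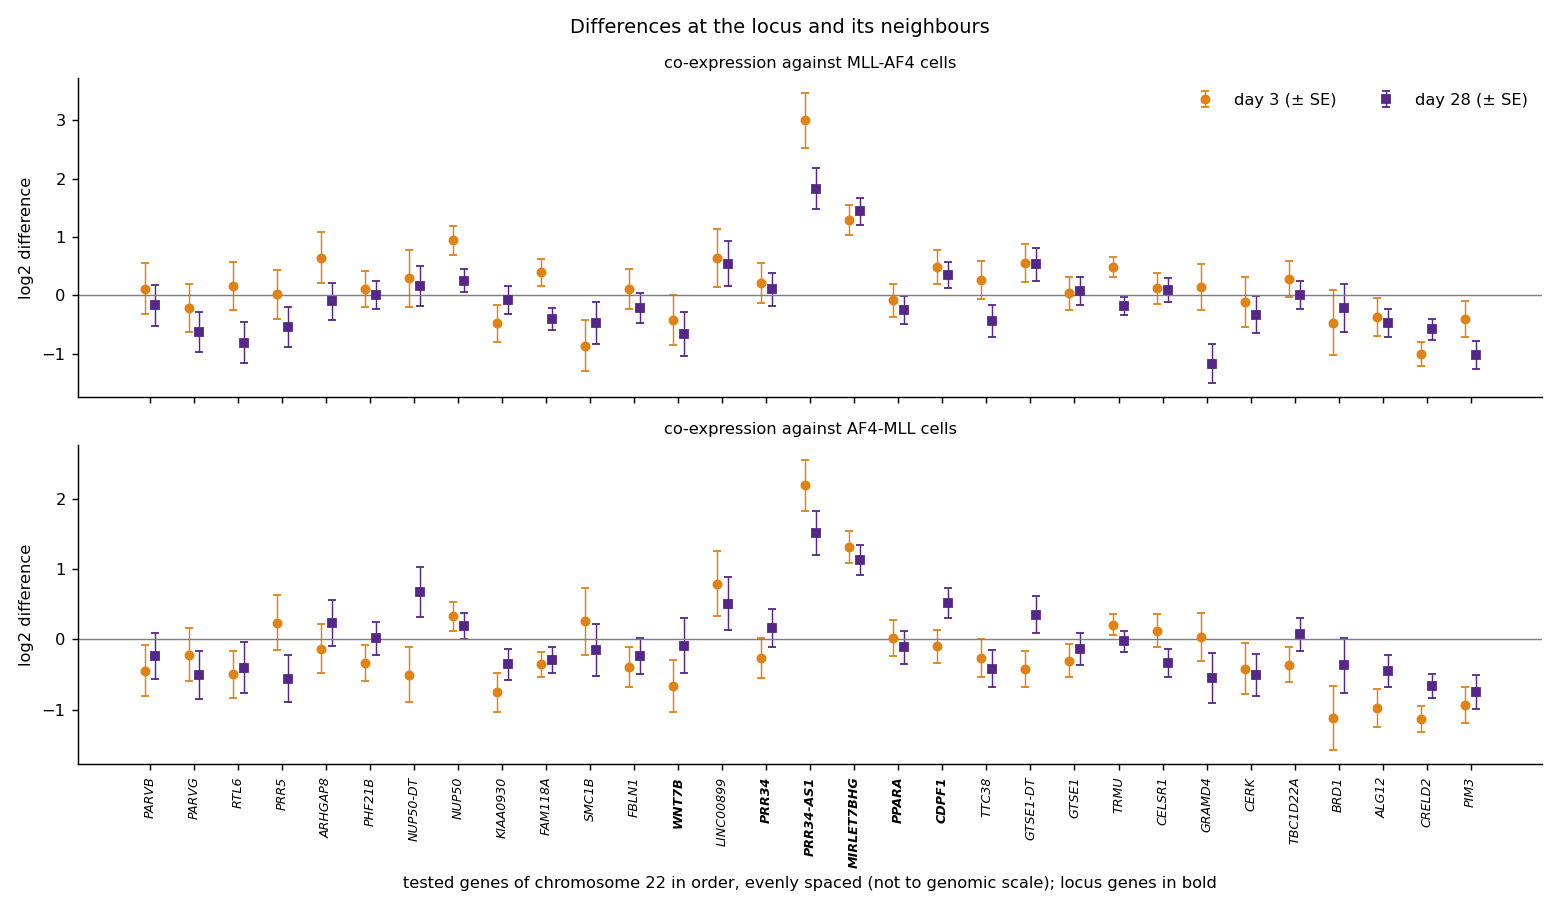
Log2 difference ± SE (vertical axis) of co-expression against MLL-AF4 cells (top) and AF4-MLL cells (bottom) for tested genes of chromosome 22 in genomic order, evenly spaced and not to scale, with locus genes in bold. MIRLET7BHG and PRR34-AS1 stand at 1.13 or more in every comparison. The other genes shown stay under 0.95 on the upper side and reach down to -1.17, for GRAMD4 against MLL-AF4 cells on day 28.

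Other microRNA rows could not be read. MIR3619, inside the host gene, had 0 to 3 counts per library and 14 in all. Of the other let-7 genes with a row, MIRLET7A1, MIRLET7C, MIRLET7D, MIRLET7E, MIRLET7F1, MIRLET7F2 and MIRLET7G had at most 2 counts in a library, and MIRLET7I at most 8. At these counts no difference was detectable. Of genes listed as hosts of other let-7 hairpins, 5 were tested, among them MIR99AHG (let-7c), MIR100HG (let-7a-2), HUWE1 (let-7f-2 and miR-98) and WDR82 (let-7g), and the fifth, LINC01315, holds no let-7 hairpin in RefSeq. In the 4 co-expression comparisons 0 of 5 were called by edgeR, or by DESeq2 among those with an adjusted p (1 at an unadjusted p under 0.05 in 1 comparison), with log2 differences between -0.53 and 0.75 and medians of -0.06 and 0.16 on day 3 and 0.15 and 0.08 on day 28. Of all genes tested edgeR called 1.15% to 1.8% in these comparisons, and 11.8% to 14.5% had an unadjusted p under 0.05.

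The machinery that makes let-7 was likewise not called between settings. Of 17 genes listed, from the nuclease genes DROSHA and DICER1 to the let-7 inhibitors LIN28A and LIN28B, 14 were tested, and 0 were called in the co-expression comparisons by edgeR, or by DESeq2 among those with an adjusted p (3, 1, 1 and 0 at an unadjusted p under 0.05, edgeR). Of all genes tested edgeR called 1.8%, 1.32%, 1.15% and 1.69% there, with 14.5%, 12.3%, 11.8% and 12.7% at an unadjusted p under 0.05. The median log2 difference of the list was 0.01 and 0.05 on day 3 and 0.03 and 0.07 on day 28. LIN28B lay at 13.2 ± 5.3 CPM (SD, n = 3) in the co-expression libraries of day 3 and 14.99 ± 5.24 CPM in those of day 28, within the spread of the other groups, and LIN28A had at most 10 counts in a library. PRKRA, a partner of the nuclease Dicer, was the 1 gene of the list called over time. It fell in MLL-AF4 cells from 70.7 ± 2.5 to 47.6 ± 6.1 CPM (log2 change -0.59, adjusted p = 0.015, edgeR). Of all genes tested edgeR called 2.87% in that comparison. At an unadjusted p under 0.05 there were 4 of the 14 list genes, beside 15.8% of all genes tested.

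Known let-7 targets were examined as the other end of the pathway. Of 24 genes listed 23 were tested, and 0 were called in any comparison by edgeR, where 0% to 2.87% of all genes were. At an unadjusted p under 0.05 there were 0 of 23 on day 3 against MLL-AF4 and AF4-MLL cells, where 14.5% and 12.3% of all genes tested were. On day 28 there were 7 and 4 of 23 against the same settings, where 11.8% and 12.7% of all genes tested were. DESeq2 called 0 of the targets that it gave an adjusted p. The medians were log2 -0.01 and -0.02 on day 3 and -0.16 and 0.00 on day 28, beside medians over all genes within 0.01 of 0. Values on day 28 against MLL-AF4 cells included -1.25 (SE 0.44, adjusted p = 0.15, edgeR) for MYCN and -0.72 (SE 0.22, adjusted p = 0.079, edgeR) for CDC25A, a cell cycle phosphatase, both named after their values were seen. HMGA2, a chromatin protein gene and classical target, was at 0.35 (SE 0.16, adjusted p = 0.30, edgeR) against AF4-MLL cells on day 28. The 23 tested targets ran from -0.97 to 0.35 in that comparison, so the HMGA2 value lay at their upper end. Since let-7 acts on messenger RNA, these counts do not measure its effect on these genes.

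For the flanking ligand and receptor, partners and targets were listed in the same way. Of 18 genes around PPARA, such as its partner RXRA and its target CPT1A, 15 were tested and 0 called in the co-expression comparisons by edgeR, or by DESeq2 among those with an adjusted p (1, 1, 2 and 4 at an unadjusted p under 0.05, edgeR), with medians of -0.04 and 0.02 on day 3 and 0.01 and -0.07 on day 28. Among all genes tested edgeR called 1.8%, 1.32%, 1.15% and 1.69% in these comparisons, and 14.5%, 12.3%, 11.8% and 12.7% had an unadjusted p under 0.05. Of 17 Wnt receptors and targets, all tested, RNF43 alone was called, and the medians were -0.03 and -0.07 on day 3 and 0.06 and 0.00 on day 28. RNF43, a membrane ligase that removes Wnt receptors, rose from 23.2 ± 4.4 CPM (SD, n = 3) in MLL-AF4 cells and 25.04 ± 6.25 CPM in AF4-MLL cells to 44.3 ± 2.0 CPM in co-expression cells on day 3. Its log2 differences were 0.94 (adjusted p = 0.0031, edgeR) and 0.84 (adjusted p = 0.0033, edgeR), and on day 28 (45.1 ± 4.5 CPM against 27.4 ± 4.6 CPM) it was higher than in AF4-MLL cells by 0.73 (adjusted p = 0.0050, edgeR). DESeq2 also called RNF43 in both day 3 comparisons (adjusted p = 0.043 and 0.045), but not against AF4-MLL cells on day 28 (adjusted p = 0.095). Against MLL-AF4 cells on day 28 (31.6 ± 3.5 CPM) its log2 difference of 0.52 (SE 0.17) was not called (adjusted p = 0.11 with edgeR and 0.47 with DESeq2).

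The genes whose pattern was most like that of MIRLET7BHG over the 18 libraries lay mainly on another chromosome. By Pearson correlation of log2 CPM over 15389 genes, the 5 most alike were AC021683.3 (r = 0.88), TJP1 (0.87), DUT (0.87), MKRN3 (0.86) and SHF (0.84), of which the last 4 are on chromosome 15. TJP1, a tight junction gene, lay at 28.7 CPM in co-expression cells on day 3 against 15.3 and 16.2 CPM in MLL-AF4 and AF4-MLL cells. Of the 100 most alike genes 89 had a RefSeq chromosome, and 58 of these were on chromosome 15 and 2 on chromosome 22, whereas of all 13368 ranked genes with a chromosome 474 were on chromosome 15 and 343 on chromosome 22. PRR34-AS1 ranked 7 (r = 0.83), CDPF1 592 (0.53), PRR34 5841 (0.12), PPARA 11426 (-0.19) and WNT7B 12751 (-0.28). The 5 least alike were LINC01348 (-0.90) and HNRNPU (-0.90) on chromosome 1 and SRR (-0.88), SREBF1 (-0.86) and SPECC1 (-0.86) on chromosome 17. All points share their libraries and normalisation, and the correlations mainly restate which genes separate the 6 co-expression libraries from the other 12. The part that the chromosome 15 genes have in the result was not tested.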

How the data were processed

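The authors deposited 1 table of raw counts of ATAC-seq reads per gene, whole numbers without normalisation, for 54425 genes in 18 libraries. The submitters' processing notes name bcl2fastq, Bowtie2, HTSeq and the build GRCh38. Tool versions, the region counted per gene, the annotation release, duplicate handling and any transposase offset are not given in the sources used here. If whole genes were counted, longer genes collect more background reads (Spearman rho 0.29 between mean count and RefSeq span across 18448 protein-coding genes, which are not independent replicates).

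Counts were analysed with edgeR 4.0.16 in R 4.3.3, with TMM normalisation, filterByExpr (minimum count 10, minimum total 15), 6 groups in 1 fit and quasi-likelihood tests, Benjamini-Hochberg adjusted over 17660 genes with a threshold of 0.05. The biological coefficient of variation was 7.48%. DESeq2 1.42.0 was an alternative, beside library sizes without TMM, other filters, a replicate block and leaving out each library. The test was also run on simulated counts with the same spread for every gene and changes only in genes with higher counts. That run does not cover rows with few counts such as PRR34-AS1. Locations, promoters and mature microRNAs came from RefSeq (GRCh38.p14). Correlations used log2 CPM with a prior count of 2.

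The members and gene lists were chosen with earlier results of these data known. The text names the 9 genes, list genes with an adjusted p under 0.05, the 3 tested genes on each side and the 5 most and least alike genes, and says where a gene was chosen after its values were seen. Replicates are labelled biological, and p-values measure the spread between these libraries. All replicate pairs differed beyond sampling noise, so each library counted once. Single values of some marker and list genes are not reported here, and the marker sums leave such markers out.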

Additional observations from a re-analysis of the deposited data

How the results depend on the processing

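MIRLET7BHG was called in all 14 alternatives of each of the 4 co-expression comparisons, with log2 differences of 1.16 to 1.62 and 1.10 to 1.48 on day 3 and 1.28 to 1.60 and 0.99 to 1.27 on day 28, against MLL-AF4 and AF4-MLL cells. PRR34-AS1 was called in all 13 with an adjusted p in 3 of these comparisons and in 12 of 13 against AF4-MLL cells on day 28, where leaving out each library in turn gave 1 to 2 genes of the locus. The comparison with MLL-AF4 cells chose MIRLET7BHG on day 28 and PRR34-AS1 on day 3, so the calls there give no support. PRR34-AS1 also passed the filter on low counts only through the co-expression libraries. DESeq2 called 1 gene of the locus in each of the 4 comparisons, MIRLET7BHG, because it gave no adjusted p for PRR34-AS1. Over all genes DESeq2 called 67 and 36 on day 3 and 18 and 33 on day 28, against 318, 233, 203 and 298 with edgeR. Without co-expression day 28 replicate 1, edgeR called 63 and 102 genes on day 28, and without MLL-AF4 or AF4-MLL day 3 replicate 1 it called 120 and 86 on day 3.

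Library size alone as the scale, which keeps the mitochondrial reads in the denominator, moved the median of all genes by -1.03, -0.85 and -1.04 (log2) between the days in the 3 settings (AF4-MLL, then MLL-AF4, then co-expression). It called 5, 2 and 6 genes of the locus as lower on day 28. Among these calls the sign turned for PPARA (-0.91) and MIRLET7BHG (-0.94) in AF4-MLL cells, PPARA (-0.69) in MLL-AF4 cells and PRR34 (-0.87) and CDPF1 (-0.71) in co-expression cells, all near the shift of the median. Over all genes it called 15323, 11219 and 15384 between the days (107, 506 and 107 with TMM), and 240, 97, 102 and 86 in the co-expression comparisons.

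Same-numbered replicates did not deviate together (45 pairs, median correlation -0.0065, 0 above 0.1), so the numbers do not pair the libraries. With the replicate block 2 genes of the locus were called in each of the 4 co-expression comparisons, as without it, and 298, 215, 181 and 270 genes over all. Of 186 alternative counts of called locus genes 178 kept their value. Depth limits PRR34-AS1, with 0 to 12 counts in libraries of a single fusion, and WNT7B, with 4 to 23, while ATXN10 and the microRNA rows could not be tested.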
